A study of Mus musculus with 18 samples.

Results

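Resting tolerized CD4+ T cells (T0) were compared with resting naive CD4+ T cells (N0) by RNA-seq over all Ensembl genes. The study calls the control cells predominantly naive, and no sort for naive cells is described, so "naive" here follows the label. The comparison took the 3 libraries labelled tolerant and untreated and the 3 labelled naive and untreated, which are 6 of the 18 libraries of the series. Both groups came from spleens of Tg4-H2u mice, which are transgenic for a TCR against an N-terminal peptide of myelin basic protein (MBP), so the controls carry the transgene too. Tolerized mice had received 7 subcutaneous injections of the 4Y variant of the MBP peptide, with doses rising from 0.08 to 80 µg in 200 µL, and naive mice had received PBS on the same schedule. Mice of both groups were given a last injection of PBS 2 h before the spleens were taken. Male and female mice aged 6 to 12 weeks were used. The cells were enriched with a magnetic CD4 kit, the purity of the cells sequenced is not given in the sources used here, and the sources do not say whether a library is 1 mouse or several. The p-values therefore measure the spread between libraries.

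CD4+ T cells that meet soluble peptide repeatedly can become tolerant, a state in which they respond poorly to the peptide and can secrete the suppressive cytokine IL-10. Naive T cells circulate through lymphoid organs and express factors such as SATB1, LEF1 and BACH2, while cells that have met antigen express adhesion molecules, chemokine receptors and coinhibitory receptors. Spleen also holds neutrophils and erythroid precursors, whose very abundant transcripts can be read in an enriched T cell sample even when such cells are few.

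The libraries held 10758571 to 11204651 counts in N0 and 11198930 to 11453566 in T0. Of 37991 genes counted, 21934 had a read in T0 or N0, and 17240 reached an average of 3 normalized counts in a group and were tested with edgeR's quasi-likelihood test. A normalized count is the read count divided by the TMM-scaled library size relative to the geometric mean of all libraries. A gene "passed the test" at a Benjamini-Hochberg adjusted p under 0.05, and was "called" when the fold change was also at least 2 and the average normalized count in the higher group above 50. Transcripts of the TCR and its complex were read in all 6 libraries. *Cd3e*, a chain of the TCR complex, had 3642, 4172 and 3717 normalized counts in N0 and 3504, 3845 and 4394 in T0, and *Trac*, the constant gene of the TCR alpha chain, had 15157, 13065 and 13655 normalized counts in N0 and 12870.5, 13464 and 14752 in T0. Neither separated the groups, and neither passed the test (adjusted p = 0.881 and 0.851, both genes chosen after their values were seen). Other T cell identity genes differed, with 8 of 18 tested lower, *Cd4* among them, and 1 higher. The libraries also differed in the sex of the mice. The 3 N0 libraries and T0 replicate 3 had 18647 to 36250 *Xist* reads, while T0 replicates 1 and 2 had 6563 and 6320 Y-linked reads, so the Y-linked gene *Uty* was called at 9.91, 8.35 and 14.9 normalized counts in N0 and 1322, 1241 and 6.71 in T0. Within these 6 libraries, sex and cell state can be told apart only through T0 replicate 3. That female library lay above all N0 libraries for 440 of the 450 genes called higher and below them for 108 of the 111 called lower, against 28.1% and 33.7% of all tested genes. This library was among those that made the calls, so these counts follow largely from the selection. They cannot separate sex from cell state. With the sex as a covariate in the fit of all 18 libraries, 342 genes were called higher and 114 lower. Tolerized libraries taken after a last injection of the peptide, which also entered that fit, held both sexes too. Among the N0 libraries, replicate 1 was the highest for 342 of the 450 genes and replicate 2 the lowest for 334.

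In tolerized cells, 450 genes (2.61% of those tested) were called higher and 111 (0.644%) lower. Of the tested members of each list, 11 of 23 genes of IL-10 secreting cells, 12 of 19 coinhibitory genes, 11 of 23 regulatory T cell genes and 24 of 43 memory T cell genes passed the test as higher, and 16 of 30 genes of naive T cells as lower. Beside them, 29 of 32 neutrophil genes and 17 of 40 erythroid genes passed as higher. In bulk RNA, fewer cells of a type and less RNA per cell cannot be told apart, and this holds for each list below. Of the 450 higher genes, 61 stood in T cell lists, 17 in a list of neutrophil genes and 7 in a list of erythroid genes. Another 6 stood in lists of other cells and 359 (79.8%) in none of the lists. T cell lists here are all those not of other cells, so the cell division, immediate early and interferon lists count among them. Genes of these 3 lists are not confined to T cells, and 11 genes of the cell division list were called higher. Of the 111 lower genes, 9 stood in T cell lists, 1 in a list of NK and CD8 T cell genes and 101 in none. At the adjusted p alone, 1452 genes (8.42%) were higher and 2067 (12%) lower, and the median log2 fold change of all tested genes was −0.08. The libraries of T0 and N0 did not overlap for 439 of the 450 and 106 of the 111 called genes. Among all tested genes they did not overlap for 35.0%, with T0 higher for 13.1% and lower for 21.8%. The called genes were selected in these same libraries, so their counts without overlap follow largely from the selection.

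**Figure D1:**
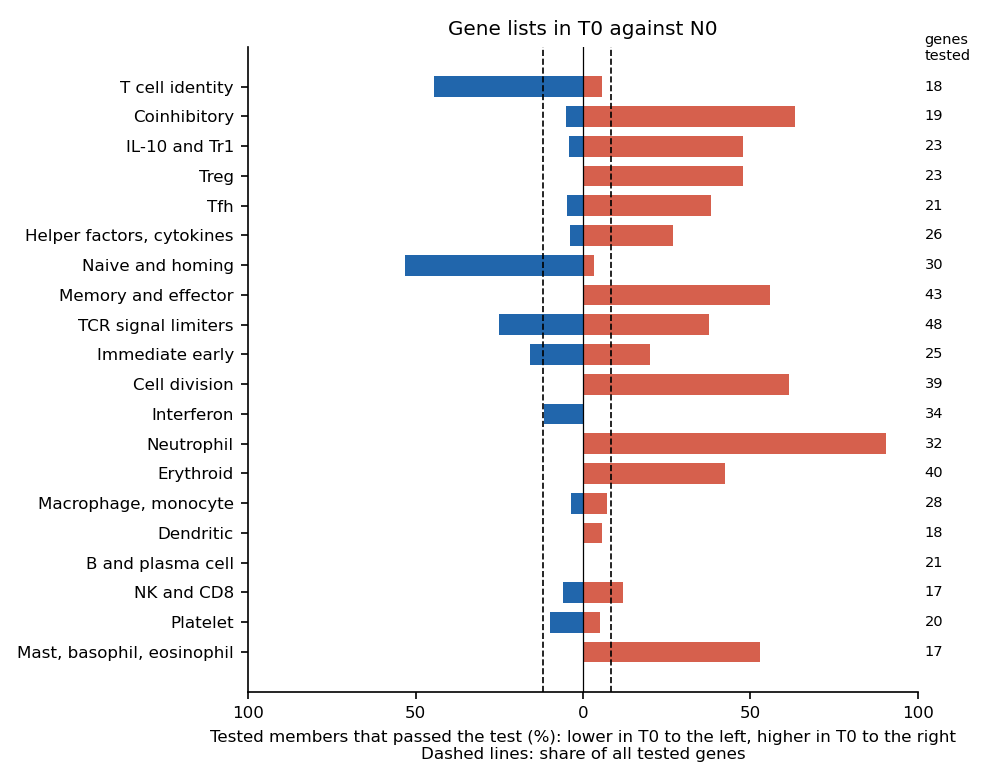
Share of the tested members of each gene list that passed the test in T0 against N0, in percent, with members lower in T0 to the left and members higher in T0 to the right. Numbers at the right edge give the tested members, and dashed lines mark the 8.42% and 12% of all tested genes that were higher or lower. The neutrophil, coinhibitory, memory and cell division lists extend furthest to the right, and the naive and T cell identity lists to the left.

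The gene of IL-10 and several of its transcription factors rose. Of 23 tested genes linked to IL-10 and type 1 regulatory (Tr1) cells, 11 rose and 1 fell, with a median log2 fold change of 0.85. *Il10* itself (chr1:132916422-132921551, + strand, build NCBIM37), which encodes the secreted suppressive cytokine, had 2.97, 0 and 1.98 normalized counts in N0 and 81.4, 89.2 and 61.4 in T0. It was close to absent from each naive library and present in each tolerized one, without overlap. The N0 libraries held 5 *Il10* reads in all and the T0 libraries 257, a ratio of 46.3 (exact 95% interval 19.6 to 144), covering counting error, which PCR duplicates can widen (log2 fold change 5.43, SE 0.79, adjusted p = 0.00038). *Maf*, a transcription factor that drives IL-10 in several T cell types, had 597, 304 and 416 normalized counts in N0 and 2094, 3009 and 3239.8 in T0 (log2 fold change 2.66, SE 0.33, adjusted p = 0.00013). Every tolerized library was above every naive one. *Ahr*, the aryl hydrocarbon receptor, had 143, 89.8 and 112 normalized counts in N0 and 642, 710.1 and 600.4 in T0 (log2 fold change 2.50, SE 0.23, adjusted p = 7.2e-06), again without overlap. *Nfil3*, a basic leucine zipper factor, was lower in count and rose with 43.6, 28.2 and 30.7 normalized counts in N0 and 96.4, 108 and 122 in T0 (log2 fold change 1.66, SE 0.32, adjusted p = 0.0024). *Prdm1*, which encodes BLIMP1, had 156, 151 and 181 normalized counts in N0 and 354, 397 and 269.5 in T0 (log2 fold change 1.06, SE 0.22, adjusted p = 0.0039), and *Icos*, a costimulatory receptor, had 758, 499 and 659 normalized counts in N0 and 1374, 1647 and 1332 in T0 (log2 fold change 1.18, SE 0.15, adjusted p = 4.1e-05). Both groups of libraries were apart for these genes as well. On the RPKM scale, which divides a group average by exon length and library size, *Maf* was the most abundant of these transcription factors in tolerized cells at 24.7 RPKM, against 7.72 for *Ahr*, 4.53 for *Prdm1* and 3.93 for *Nfil3*, while *Il10* was at 4.32 RPKM.

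Most genes of receptors that restrain T cells rose. Of 19 tested coinhibitory genes, 12 rose and 1 fell, and 9 were called, with a median log2 fold change of 0.93. *Ctla4* (chr1:60943844-60972676, + strand), whose product competes with CD28 for its ligands, had 596, 362 and 489 normalized counts in N0 and 1854, 1948 and 2754 in T0 (log2 fold change 2.18, SE 0.20, adjusted p = 6.2e-06). The lowest tolerized library was more than 3 times the highest naive one. *Lag3*, a receptor for MHC class II, had 56.5, 13.6 and 40.7 normalized counts in N0 and 208, 225 and 411 in T0 (log2 fold change 2.91, SE 0.42, adjusted p = 0.00037). *Nt5e*, which encodes the ectoenzyme CD73 that makes adenosine, had 459.6, 145 and 301 normalized counts in N0 and 1137, 1270.1 and 1463 in T0 (log2 fold change 2.09, SE 0.37, adjusted p = 0.0019). In both genes N0 replicate 2 was the lowest library and no tolerized library reached down to the naive ones. *Entpd1*, the CD39 enzyme upstream of CD73 (chosen after its values were seen), had 164, 63.7 and 83.3 normalized counts in N0 and 282, 298 and 246 in T0 (log2 fold change 1.40, SE 0.28, adjusted p = 0.0027). *Tigit*, a receptor for the poliovirus receptor, had 95.1, 25.1 and 71.4 normalized counts in N0 and 241, 265 and 201 in T0 (log2 fold change 1.87, SE 0.39, adjusted p = 0.005), and *Pdcd1*, which encodes PD-1, had 147, 54.3 and 106 normalized counts in N0 and 261, 287 and 308 in T0 (log2 fold change 1.47, SE 0.21, adjusted p = 0.00019). The naive libraries had readable *Pdcd1*, *Tigit* and *Lag3*, so these genes differed in amount and not in presence. *Havcr2*, which encodes TIM-3, had 47.5, 7.31 and 12.9 normalized counts in N0 and 99.1, 98.0 and 57.5 in T0 (log2 fold change 1.90, SE 0.51, adjusted p = 0.0194), and the gap between N0 replicate 1 and T0 replicate 3 was narrow. *Havcr2* no longer passed the test without N0 replicate 2 or 3 or T0 replicate 1 or 2, when sex was a covariate or with only the 6 resting libraries in the fit (adjusted p = 0.0630 to 0.0817, 0.12 and 0.0963). Without N0 replicate 2 or N0 replicate 3, 7 coinhibitory genes passed as higher in place of 12, and the member that fell, *Cd200r1* (chosen after its values were seen), passed among the 6 fits with a library left out only in that without T0 replicate 2, and not with only the resting libraries (adjusted p = 0.112).

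Of the 23 tested genes of regulatory T (Treg) cells, 11 rose and none fell, 8 were called, and the log2 fold change was above 0 for all 23 (median 0.96). *Ikzf2*, the Helios transcription factor, had 1689.9, 742 and 1426 normalized counts in N0 and 4465, 5233 and 4018 in T0 (log2 fold change 1.83, SE 0.31, adjusted p = 0.0013), and *Nrp1*, the receptor neuropilin 1, had 465, 149 and 384 normalized counts in N0 and 1065, 1348 and 1900.0 in T0 (log2 fold change 2.11, SE 0.37, adjusted p = 0.0015). Tolerized and naive libraries did not overlap for either, and *Nrp1* did not pass with only the resting libraries in the fit (adjusted p = 0.0574). *Itgae*, the CD103 integrin chain that is also expressed by dendritic cells, had 145, 94.0 and 126 normalized counts in N0 and 1199, 1004 and 357 in T0 (log2 fold change 2.81, SE 0.44, adjusted p = 0.00073), with T0 replicate 3 far below the other tolerized libraries and still above the naive ones. *Foxp3*, the factor that defines Treg cells (chosen after its values were seen), had 368, 148 and 275 normalized counts in N0 and 776, 1043 and 339.5 in T0. Here the groups overlapped, because T0 replicate 3 was below N0 replicate 1. The *Foxp3* call (log2 fold change 1.45, SE 0.43, adjusted p = 0.0336) was lost without N0 replicate 2 or 3 or T0 replicate 1 or 2 with sex as a covariate and with only the resting libraries (adjusted p = 0.0880 to 0.147, 0.337 and 0.187). *Il2ra*, the CD25 chain of the IL-2 receptor (chosen after its values were seen), had 416, 299 and 406 normalized counts in N0 and 695, 963 and 420.1 in T0 (log2 fold change 0.89, SE 0.23, adjusted p = 0.015), and T0 replicate 3 was within 5 normalized counts of N0 replicate 1. It did not pass without N0 replicate 2 (adjusted p = 0.0716), with sex as a covariate (adjusted p = 0.204) or with only the resting libraries (adjusted p = 0.163). Without N0 replicate 2, without N0 replicate 3 or with only the resting libraries, 7 Treg genes passed in place of 11.

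**Figure D2:**
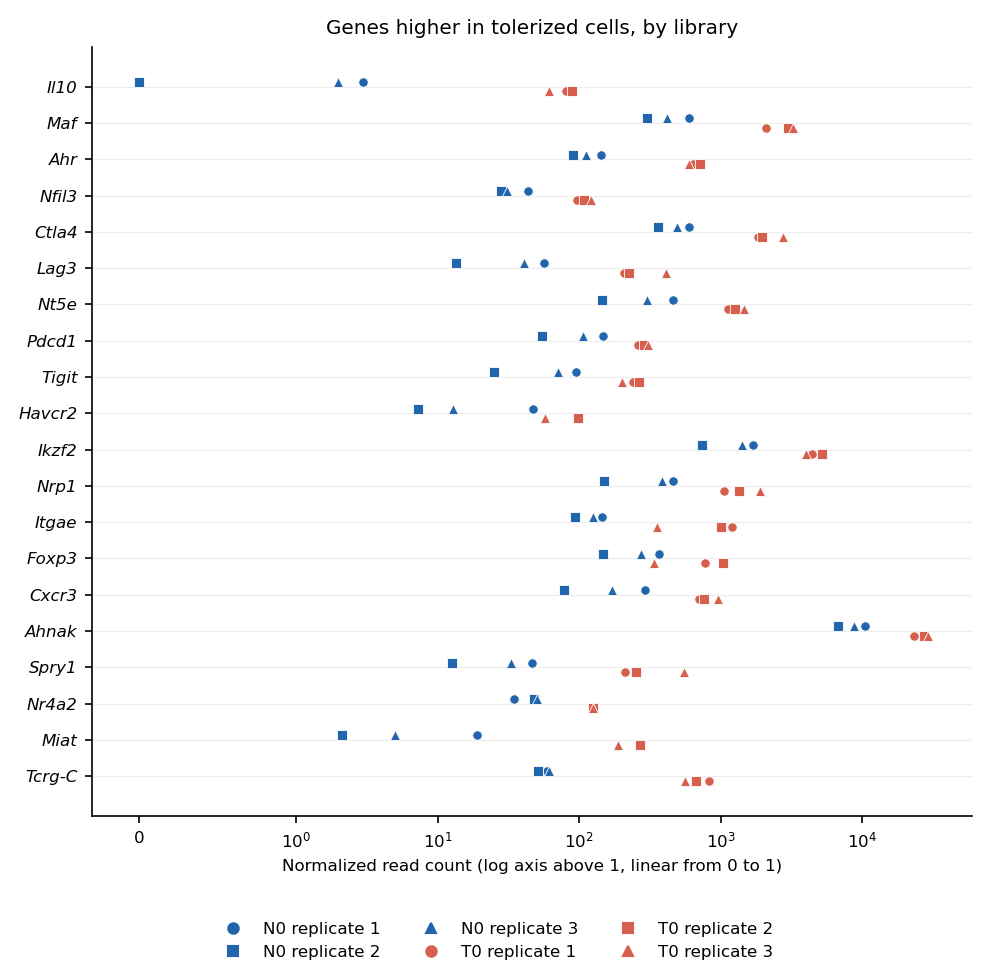
Normalized read counts of 20 genes that were higher in tolerized cells, 1 row per gene, on an axis that is logarithmic above 1 and linear below. Blue symbols are the N0 libraries and red symbols the T0 libraries, and the shape marks the replicate. Naive and tolerized libraries are apart for each gene shown other than *Foxp3*, where T0 replicate 3 lies among the naive libraries.

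Most memory and effector genes rose. Of 43 tested members, 24 rose, none fell and 17 were called (median log2 fold change 0.85). Reads of this list made up 0.362 to 0.462% of all counts in N0 and 0.794 to 0.882% in T0. *Ahnak*, a large scaffold protein of activated cells, had 10537, 6731 and 8784 normalized counts in N0 and 23411, 27499 and 29189.9 in T0 (log2 fold change 1.62, SE 0.18, adjusted p = 2.7e-05). *Cxcr3*, a chemokine receptor of T helper 1 and memory cells, had 292, 78.3 and 169.6 normalized counts in N0 and 708, 758 and 955 in T0 (log2 fold change 2.16, SE 0.32, adjusted p = 0.00044), and *Ccr2*, another chemokine receptor, had 302, 167 and 300.5 normalized counts in N0 and 1072, 1029.8 and 857 in T0 (log2 fold change 1.94, SE 0.27, adjusted p = 0.00024). The tolerized libraries were at least 2 times the highest naive library for each of these 3 genes. *Itgb1*, the common beta chain of several integrins, had 2470.5, 1332 and 1906 normalized counts in N0 and 4374, 4228 and 7674 in T0 (log2 fold change 1.51, SE 0.25, adjusted p = 0.00093). *Cd44*, the hyaluronan receptor used to sort memory from naive T cells, had 1227, 1055 and 1169 normalized counts in N0 and 1656, 1681 and 1694 in T0. It moved by little but in every library (log2 fold change 0.54, SE 0.11, adjusted p = 0.0013). *Il2rb*, the chain of the IL-2 and IL-15 receptor, had 1721, 666 and 1104 normalized counts in N0 and 3094, 3771 and 4031 in T0 (log2 fold change 1.64, SE 0.26, adjusted p = 0.00087), and *Gzmb*, the protease granzyme B, had 95.1, 68.9 and 46.6 normalized counts in N0 and 192, 215 and 284 in T0 (log2 fold change 1.71, SE 0.34, adjusted p = 0.0036). With only the resting libraries *Itgb1* and *Il2rb* did not pass (adjusted p = 0.0578 and 0.0589). *Cd44*, *Il2rb* and *Gzmb* were chosen after their values were seen.

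Fewer genes of particular helper lineages passed the test. Of 26 tested helper factors and cytokines, 7 rose and 1 fell (median 0.56), and 3 of the list (*Il3*, *Il5* and *Il22*, chosen after their values were seen) had no read in any N0 library. *Tbx21*, which encodes the T helper 1 factor T-bet, had 166, 80.4 and 95.2 normalized counts in N0 and 320.2, 356 and 505 in T0 (log2 fold change 1.78, SE 0.26, adjusted p = 0.00033). Tolerized libraries lay above the naive ones. Of 21 tested genes of T follicular helper (Tfh) cells, 8 rose and 1 fell (median 0.61). Without N0 replicates 2 and 3 and T0 replicate 3, each left out alone, 5, 4 and 5 of them passed as higher, and 5 did with sex as a covariate. *Cxcr5*, the receptor that leads T cells into follicles, had 284, 61.6 and 107 normalized counts in N0 and 407, 465 and 558 in T0 (log2 fold change 1.65, SE 0.40, adjusted p = 0.0124), and missed the threshold without N0 replicate 3, with sex as a covariate and with only the resting libraries (adjusted p = 0.0563, 0.0576 and 0.145). The member that fell was *Cd40lg*, the CD40 ligand that T cells use to help B cells, with 767, 1179 and 961 normalized counts in N0 and 407, 416 and 394 in T0 (log2 fold change −1.25, SE 0.15, adjusted p = 2.8e-05). All 3 tolerized libraries had close to 400 normalized counts of *Cd40lg*, below all naive ones.

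Genes that limit TCR signaling moved in both directions. Of 48 tested members, 18 rose and 12 fell, 5 were called higher and 3 lower, and the median log2 fold change was 0.10. Without T0 replicate 1, 7 members passed as lower, and with only the resting libraries in the fit 4 did. *Spry1*, a Sprouty inhibitor of Ras signaling, had 46.6, 12.5 and 32.7 normalized counts in N0 and 209.6, 252 and 555 in T0 (log2 fold change 3.45, SE 0.42, adjusted p = 0.00011), the largest rise of the list. *Ubash3b*, which encodes the phosphatase STS-1, had 732, 743 and 769 normalized counts in N0 and 1436, 1486 and 1812 in T0 (log2 fold change 1.08, SE 0.14, adjusted p = 5.6e-05), and *Cblb*, the E3 ubiquitin ligase CBL-B that is required for anergy, had 3362, 2956 and 2792 normalized counts in N0 and 4129.8, 4402 and 5075 in T0 (log2 fold change 0.58, SE 0.10, adjusted p = 0.00016). The change of *Cblb* was small, and still no naive library reached a tolerized one. *Dusp10*, a phosphatase of the JNK and p38 kinases, moved the other way with 975, 2692 and 2092 normalized counts in N0 and 687, 636 and 777 in T0 (log2 fold change −1.46, SE 0.29, adjusted p = 0.0037), and did not pass with sex as a covariate or with only the resting libraries (adjusted p = 0.0688 and 0.106). The NR4A orphan nuclear receptors, which are induced by TCR signals, split. *Nr4a1* had 598, 1041 and 1493 normalized counts in N0 and 495, 495 and 337 in T0 (log2 fold change −1.24, SE 0.26, adjusted p = 0.0045) and *Nr4a3* had 287, 225 and 324 normalized counts in N0 and 129, 185 and 161 in T0 (log2 fold change −0.82, SE 0.17, adjusted p = 0.0025), both lower, whereas *Nr4a2* had 34.7, 48.0 and 50.6 normalized counts in N0 and 126, 125 and 125 in T0 (log2 fold change 1.49, SE 0.12, adjusted p = 2.4e-08). With only the resting libraries *Nr4a1* did not pass (adjusted p = 0.143). On the RPKM scale *Nr4a1* remained the most abundant of them in tolerized cells, at 13.1 RPKM against 2.26 for *Nr4a2* and 1.94 for *Nr4a3*. Of 25 tested immediate early genes, 5 rose and 4 fell (median 0.02), counts that went to 8 and 7 without N0 replicate 1, while 1 passed as lower without N0 replicate 3 or T0 replicate 1, 2 without T0 replicate 2 or with sex as a covariate, and 0 with only the resting libraries.

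The cell division list rose, with 24 of 39 tested members higher, none lower and 11 called (median 0.84). *Mki67*, which encodes the Ki-67 protein of cycling cells, had 527, 215 and 267 normalized counts in N0 and 1170.2, 922 and 957 in T0 (log2 fold change 1.59, SE 0.32, adjusted p = 0.0039). *Top2a*, a topoisomerase, had 446, 150.3 and 259.8 normalized counts in N0 and 706, 681 and 751 in T0 (log2 fold change 1.32, SE 0.26, adjusted p = 0.0033), and *Ccna2*, cyclin A2, had 63.4, 20.9 and 38.7 normalized counts in N0 and 149, 84.8 and 107 in T0 (log2 fold change 1.46, SE 0.37, adjusted p = 0.0103). Both were chosen after their values were seen. With only the resting libraries *Mki67* and *Top2a* did not pass (adjusted p = 0.0567 and 0.0968), and with sex as a covariate *Ccna2* did not (adjusted p = 0.102). N0 replicate 1 stood above the other naive libraries for the 3 genes and below all tolerized ones. Precursors of neutrophils and erythroid cells divide too, and the reads of both lists rose in the same libraries. Over the 18 libraries, with the group means removed, *Mki67* had a correlation of 0.81 with the level of the neutrophil list and *Ccna2* one of 0.81 with that of the erythroid list, which share library and depth. The part of these cells in the division genes was not tested. With sex as a covariate 13 of the 39 members passed the test, and without N0 replicate 2 they numbered 14. Of 34 tested interferon-stimulated genes, none passed the test as higher and 4 were lower. That is 11.8% of the list, near the 12% of all tested genes that were lower. The lower members numbered 7 without N0 replicate 2, 2 without N0 replicate 3 or T0 replicate 2, and 1 with sex as a covariate. Among the 4, *Oas2*, a sensor of double-stranded RNA, had 630.0, 480.2 and 824 normalized counts in N0 and 296, 251 and 202 in T0 (log2 fold change −1.37, SE 0.24, adjusted p = 0.0014).

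Several of the largest rises outside the lists were at the TCR gamma locus. On chromosome 13, 10 of 12 tested genes of this locus passed the test as higher and none as lower, and 5 were called. *Tcrg-C* (chr13:19434055-19444212, + strand), a constant gene of the TCR gamma chain, had 59.4, 51.2 and 61.5 normalized counts in N0 and 834, 671 and 565 in T0 (log2 fold change 3.59, SE 0.22, adjusted p = 1.1e-08). The tolerized libraries were at least 9 times the highest naive one. The variable gene *Tcrg-V2* had 6.93, 5.22 and 9.92 normalized counts in N0 and 115, 109 and 107 in T0 (log2 fold change 3.88, SE 0.31, adjusted p = 2.1e-08), and the segments *Gm16602* and *Gm16603*, named in the annotation by number, had 19.8, 17.7 and 7.93 normalized counts in N0 and 253, 196 and 188 in T0 (log2 fold change 3.80, SE 0.32, adjusted p = 5.7e-08) and 12.9, 9.40 and 8.92 normalized counts in N0 and 108, 81.3 and 81.5 in T0 (log2 fold change 3.10, SE 0.29, adjusted p = 1.5e-07). Reads were also counted over joining segments, the short pieces that recombination sets between a variable and a constant gene. *Gm16673* (chr13:19434021-19434081, + strand) had 10.9, 4.18 and 3.97 normalized counts in N0 and 68.1, 66.2 and 63.3 in T0 (log2 fold change 3.34, SE 0.43, adjusted p = 8.1e-06), and 27 of its bases overlap *Tcrg-C*, so its reads cannot be told from those of the constant gene. *Gm16674* (chr13:19403114-19403173, − strand) had 0.991, 1.04 and 1.98 normalized counts in N0 and 8.85, 14.1 and 18.2 in T0, a ratio of 10.1 (exact 95% interval 3.69 to 38.8), and was chosen after its values were seen. The rise at the gamma locus stood against a fall at the alpha and delta locus of chromosome 14, where 8 of 118 tested genes were higher and 36 lower, with 1 and 12 called. The joining segment *Traj59* (chr14:54775808-54775871, + strand) had 46.6, 81.4 and 82.3 normalized counts in N0 and 23.0, 18.5 and 29.7 in T0 (log2 fold change −1.56, SE 0.28, adjusted p = 0.00035), and *Trdv1*, a delta variable gene, had 115, 130.5 and 95.2 normalized counts in N0 and 26.5, 28.3 and 40.3 in T0 (log2 fold change −1.84, SE 0.21, adjusted p = 1.7e-06). At the beta locus on chromosome 6, 3 of 34 tested genes were higher, 4 lower and none called, near the 8.42% and 12% of all tested genes. Variable and joining segments resemble each other, and the counting mode is not given in the sources used here, so the division of reads among them is uncertain. The 3 joining segments are shown because both loci are read here through such short pieces. They are sequences of the NCBIM37 genome on the strand of each gene, with the phenylalanine to glycine motif of joining segments in capitals.

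Gm16673: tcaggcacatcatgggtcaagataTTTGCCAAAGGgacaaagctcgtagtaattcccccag
Gm16674: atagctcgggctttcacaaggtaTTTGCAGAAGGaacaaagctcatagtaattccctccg
Traj59: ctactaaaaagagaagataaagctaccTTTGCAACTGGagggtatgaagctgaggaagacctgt

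Further unlisted genes with a large rise had varied roles. *Miat* (chr5:112642248-112657968, − strand), a long noncoding RNA, had 18.8, 2.09 and 4.96 normalized counts in N0 and 269.8, 270.3 and 189 in T0 (log2 fold change 4.78, SE 0.51, adjusted p = 2.4e-05), the largest rise after *Il10* among called genes that were apart in all libraries and stood in no list of other cells, and did not follow the neutrophil or erythroid list within groups. *Kcnc1*, a voltage-gated potassium channel, had 20.8, 3.13 and 3.97 normalized counts in N0 and 75.2, 60.9 and 130.4 in T0 (log2 fold change 3.22, SE 0.46, adjusted p = 9.1e-05). *Ptger2*, a receptor of prostaglandin E2, had 63.4, 26.1 and 57.5 normalized counts in N0 and 242, 252 and 535 in T0 (log2 fold change 2.79, SE 0.39, adjusted p = 0.00034), and *Farp1*, a guanine nucleotide exchange factor, had 62.4, 28.2 and 52.6 normalized counts in N0 and 244, 223 and 466 in T0 (log2 fold change 2.69, SE 0.40, adjusted p = 0.00044). For *Ptger2*, *Farp1* and *Kcnc1*, as for *Lag3* and *Spry1*, T0 replicate 3 was the highest library. *Spock2*, a proteoglycan of the extracellular matrix, had 104, 66.8 and 79.3 normalized counts in N0 and 453, 564 and 445 in T0 (log2 fold change 2.54, SE 0.22, adjusted p = 1.1e-06), and *Plxdc2*, a membrane protein, had 32.7, 40.7 and 31.7 normalized counts in N0 and 215, 237 and 162 in T0 (log2 fold change 2.54, SE 0.23, adjusted p = 9.5e-08). *C3*, complement component 3, had 33.7, 13.6 and 24.8 normalized counts in N0 and 209.6, 163 and 208 in T0 (log2 fold change 3.00, SE 0.26, adjusted p = 2.2e-07), and *Fn1*, fibronectin, had 93.1, 45.9 and 63.5 normalized counts in N0 and 594, 439 and 435 in T0 (log2 fold change 2.85, SE 0.23, adjusted p = 5.9e-07). Macrophages are known to make both, and *C3* and *Fn1* stood in none of the lists. *Abca13*, a large membrane transporter, had 4.95, 2.09 and 1.98 normalized counts in N0 and 83.1, 53.0 and 73.8 in T0 (log2 fold change 4.48, SE 0.51, adjusted p = 3.5e-06), with at most 5 normalized counts in a naive library. None of these genes overlapped between the groups, which was a condition for naming them.

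Neutrophil genes were the group with the largest rise. Of 32 tested members, 29 rose and none fell, with a median log2 fold change of 3.81, and 17 were called. The members that did not pass were *Ly6g*, *Il1r2* and *Itgam*, chosen after their values were seen. The list made up 0.00459 to 0.00767% of all counts in N0 and 0.0372 to 0.0533% in T0, so all neutrophil reads together were under 0.1% of a tolerized library. *Ngp*, a granule protein of neutrophil precursors, had 9.91, 12.5 and 4.96 normalized counts in N0 and 555, 250.0 and 546 in T0 (log2 fold change 5.61, SE 0.58, adjusted p = 6.9e-05). *S100a8* and *S100a9*, the calprotectin subunits, had 41.6, 30.3 and 16.9 normalized counts in N0 and 759.8, 439.9 and 599 in T0 (log2 fold change 4.34, SE 0.48, adjusted p = 5.3e-05) and 35.7, 24.0 and 6.94 normalized counts in N0 and 532, 326 and 492 in T0 (log2 fold change 4.33, SE 0.49, adjusted p = 6.5e-05). The tolerized libraries stood apart from the naive ones for these 3 genes. The primary granule genes *Mpo* (41.6, 20.9 and 14.9 normalized counts in N0 and 319, 305 and 527 in T0) and *Elane* (5.94, 3.13 and 0.992 normalized counts in N0 and 55.7, 53.0 and 88.2 in T0), which are transcribed in immature neutrophils, rose alongside (log2 fold change 3.88, SE 0.49, adjusted p = 0.00013 for *Mpo* and log2 fold change 4.24, SE 0.49, adjusted p = 3.7e-06 for *Elane*), as did *Lcn2*, lipocalin 2, with 5.94, 2.09 and 2.97 normalized counts in N0 and 155, 80.4 and 184 in T0 (log2 fold change 5.19, SE 0.47, adjusted p = 5.9e-07). *Csf3r*, the receptor of G-CSF, which mature neutrophils carry, had 89.2, 62.6 and 39.7 normalized counts in N0 and 364, 372 and 145 in T0 (log2 fold change 2.20, SE 0.44, adjusted p = 0.0033). *Mpo*, *Elane*, *Lcn2* and *Csf3r* were chosen after their values were seen. Of the list, *Olfm4* and *Stfa2l1* had no read in N0, and *Olfm4* was at least 9.0-fold higher in T0, with 30 reads against a floor of 3 for the group.

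Erythroid genes rose unevenly between the tolerized libraries. Of 40 tested members, 17 rose, none fell and 7 were called, with a median log2 fold change of 2.76. T0 replicate 1 was the highest tolerized library for 37 of the 40. Without this library 8 members passed the test as higher, with sex as a covariate 8, and with only the 6 resting libraries in the fit 12. Without N0 replicate 2 they numbered 8, without N0 replicate 3 they numbered 11, and without T0 replicate 2 they numbered 26. The list made up 0.0275 to 0.0298% of counts in N0, and 0.0764, 0.0346 and 0.0437% in the T0 libraries. *Rhag*, a blood group glycoprotein of the red cell membrane, had no read in N0 and 59.3, 7.95 and 24.9 normalized counts in T0, at least 30.6-fold higher against a floor of 3 counts for the group (adjusted p = 0.0064, and 0.0671 with only the resting libraries). *Rhd*, another gene of the Rh family, also had no read in N0. *Car1*, carbonic anhydrase 1, had 25.8, 14.6 and 15.9 normalized counts in N0 and 266, 111 and 230.2 in T0 (log2 fold change 3.42, SE 0.70, adjusted p = 0.0042), and *Tal1*, an erythroid transcription factor, had 15.8, 9.40 and 15.9 normalized counts in N0 and 103, 42.4 and 59.5 in T0 (log2 fold change 2.31, SE 0.37, adjusted p = 0.00014). Each tolerized library was above the naive ones for both. *Hbb-b1*, a beta globin, had 93.1, 12.5 and 59.5 normalized counts in N0 and 903, 108 and 98.8 in T0, and *Slc4a1*, the band 3 anion exchanger, had 32.7, 1.04 and 11.9 normalized counts in N0 and 506, 12.4 and 34.5 in T0. T0 replicate 1 carried most of both transcripts, and neither passed the test (adjusted p = 0.103 and 0.112). *Rhd*, *Car1*, *Tal1* and *Slc4a1* were chosen after their values were seen.

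**Figure D3:**
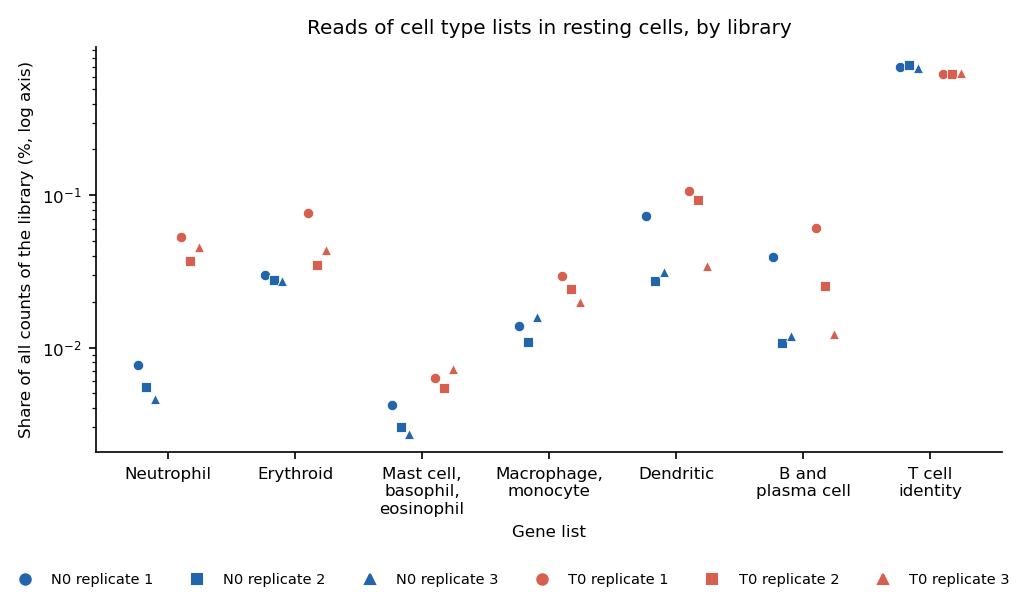
Reads of 6 lists of other cell types and of the T cell identity list as a share of all counts of each library, in percent on a log axis, for N0 (blue) and T0 (red), with the shape marking the replicate. All T0 libraries are above all N0 libraries for the neutrophil and the erythroid list, and T0 replicate 1 stands apart in the erythroid list. The same holds, with smaller gaps, for the mast cell, basophil and eosinophil list and the macrophage and monocyte list. B cell and dendritic cell shares overlap between the groups.

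Other cells were less clear. Of 17 tested genes of mast cells, basophils and eosinophils, 9 rose, none fell and 3 were called (median 1.38), and 5 rose without N0 replicate 2, N0 replicate 3 or T0 replicate 3. *Prg2*, the eosinophil major basic protein, had 5.94, 1.04 and 0 normalized counts in N0 and 49.5, 42.4 and 115 in T0 (log2 fold change 4.80, SE 0.74, adjusted p = 0.00032), and *Epx*, eosinophil peroxidase, had 1 read in N0 and 68 in T0, a ratio of 61.2 (exact 95% interval 10.6 to 2453). Of 28 tested macrophage and monocyte genes, 2 rose and 1 fell (median −0.19). *Lyz2*, the lysozyme of macrophages and neutrophils, had 225, 146 and 251 normalized counts in N0 and 1279.9, 903 and 1064 in T0 (log2 fold change 2.38, SE 0.28, adjusted p = 7.0e-05). The member that fell was *Cd5l*, a macrophage protein, with 39 reads in N0 and 6 in T0, a ratio of 7.22 (exact 95% interval 3.04 to 20.9) that did not pass the test without N0 replicate 3, T0 replicate 1 or T0 replicate 2 (adjusted p = 0.0882 to 0.134) or with sex as a covariate (adjusted p = 0.222). Without N0 replicate 1, 4 macrophage and monocyte genes passed as higher. Of 20 tested platelet genes, 1 rose and 2 fell, and without N0 replicate 1 none rose and 4 fell, while none fell without N0 replicate 2 or 3, without T0 replicate 1 or 2, or with sex as a covariate. Of 17 NK and CD8 T cell genes 2 rose and 1 fell. Of them, 7 rose without N0 replicate 1, 1 without N0 replicate 2, 4 with only the resting libraries and none with sex as a covariate. For comparison, 8.42% of all tested genes were higher and 12% lower. The platelet list and the macrophage and monocyte list (7.14% and 3.57%) were below both shares. NK and CD8 T cell genes were above the first (11.8%, which is 2 of 17) and below the second (5.88%). These differences were not tested. None of 21 B and plasma cell genes passed the test, but without N0 replicate 1, the naive library with the most B cell reads, 3 passed as higher and 1 as lower, and without N0 replicate 3, 1 passed as lower. Of 18 dendritic cell genes 1 passed, *Itgae*, which Treg cells also express, and 4 passed as higher without N0 replicate 1 or T0 replicate 3. B cell reads were 0.0107 to 0.0394% of counts in N0 and 0.0122 to 0.0612% in T0, and dendritic cell reads 0.0273 to 0.0734% and 0.0345 to 0.106%, ranges that overlapped. *Cd8b1*, a chain of the CD8 coreceptor, had 215, 211 and 190.4 normalized counts in N0 and 92.0, 78.6 and 67.1 in T0 (log2 fold change −1.37, SE 0.21, adjusted p = 8.2e-05), lower in every tolerized library.

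To separate genes of neutrophils and erythroid cells from those of T cells beyond the lists, each called gene was compared with the log level of both lists over the 18 libraries, after the group means were removed. Of the 450 higher genes, 13 had a correlation of at least 0.8 with the neutrophil list alone, 9 with the erythroid list alone, 1 with both and 427 with neither. None of the 111 lower genes reached 0.8, and of all 17240 tested genes 133 did. At so low a share, few or none of 111 genes would reach it, so the count says little about the lower genes. Negative correlations were not counted. Both lists themselves had a correlation of 0.70 with each other, and only 2 of the 32 tested neutrophil genes and 18 of the 40 erythroid genes reached 0.8, so the measure misses most neutrophil genes. The unlisted genes that reached 0.8 numbered 16. They included *Lmo2*, an erythroid and stem cell factor (0.96 with the neutrophil list), *Uhrf1*, a factor of DNA methylation in dividing cells (0.91 with the neutrophil list), and *Myh10*, a nonmuscle myosin (0.94 with the erythroid list), all chosen after their values were seen. At a correlation of 0.7 the higher genes that followed a list numbered 78, and at 0.9 they numbered 4. With the levels of both lists as covariates in the model, 3 genes were called higher and 15 lower, and the median standard error over the 561 called genes rose from 0.27 to 1.10. In that fit 273 of the 450 higher and 84 of the 111 lower genes kept their sign, with median log2 fold changes of 0.36 and −0.82. The shares of neither list overlapped between T0 and N0, so the levels of other cells and the cell state cannot be told apart within these 6 libraries. The scaling did not depend on these reads, since 455 genes were called higher and 107 lower when both lists were left out of the library sizes.

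Genes of naive T cells were among those that fell, mostly by less than 2-fold. Of 30 tested naive and homing genes, 16 fell and 1 rose, with a median log2 fold change of −0.29, and 3 were called. Their reads were 1.18 to 1.28% of counts in N0 and 1.01 to 1.03% in T0. *Satb1* (chr17:51875512-51972615, − strand), a chromatin organizer, had 16579, 20261 and 17574 normalized counts in N0 and 9014, 9158 and 9509 in T0 (log2 fold change −0.98, SE 0.09, adjusted p = 2.2e-07). *Lef1*, a transcription factor of the TCF family, had 8433, 8177 and 7498 normalized counts in N0 and 4254, 4021 and 4334 in T0 (log2 fold change −0.93, SE 0.08, adjusted p = 5.7e-08), and *Bach2*, a repressor of effector genes (chosen after its values were seen), had 3844, 4734 and 4309 normalized counts in N0 and 2281, 2136 and 2343 in T0 (log2 fold change −0.93, SE 0.11, adjusted p = 4.1e-06). The 3 factors were near 2-fold lower in each tolerized library and stayed just short of the fold that a call asks for. *Atp1b1*, a subunit of the sodium pump, had 1051, 1322 and 1122 normalized counts in N0 and 477, 488 and 346 in T0 (log2 fold change −1.41, SE 0.14, adjusted p = 1.8e-06), *Slc16a5*, a monocarboxylate transporter, had 666, 1077 and 826 normalized counts in N0 and 327, 330.3 and 179 in T0 (log2 fold change −1.61, SE 0.23, adjusted p = 0.00022), and *Ramp1*, a partner of the CGRP receptor, had 410.1, 500.1 and 446 normalized counts in N0 and 216, 199 and 140.0 in T0 (log2 fold change −1.29, SE 0.19, adjusted p = 8.7e-05). These were the called members of the list, with T0 replicate 3 the lowest library for each. *Als2cl*, a relative of alsin, had 8158, 10320.5 and 7504 normalized counts in N0 and 4175, 3941 and 5602 in T0 (log2 fold change −0.92, SE 0.17, adjusted p = 0.0017). *Ccr7*, the receptor that leads naive T cells into lymphoid tissue, had 3728, 4084 and 3741 normalized counts in N0 and 2233, 2199 and 3029.8 in T0 (log2 fold change −0.63, SE 0.10, adjusted p = 0.00012), and *Tcf7*, which encodes TCF1, had 11938, 14925 and 13672 normalized counts in N0 and 10731, 11094 and 11780.5 in T0 (log2 fold change −0.27, SE 0.08, adjusted p = 0.021). The fall of *Tcf7* was the smallest of these and did not pass the test without N0 replicate 2 or 3 or T0 replicate 1 or 2 (adjusted p = 0.0532 to 0.124), with sex as a covariate (adjusted p = 0.0527) or with only the resting libraries (adjusted p = 0.136). *Il7r*, the IL-7 receptor, had 3654, 4714 and 4145 normalized counts in N0 and 6248, 5944 and 5619 in T0 and rose (log2 fold change 0.51, SE 0.13, adjusted p = 0.0083). *Ccr7* was chosen after its values were seen.

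**Figure D4:**
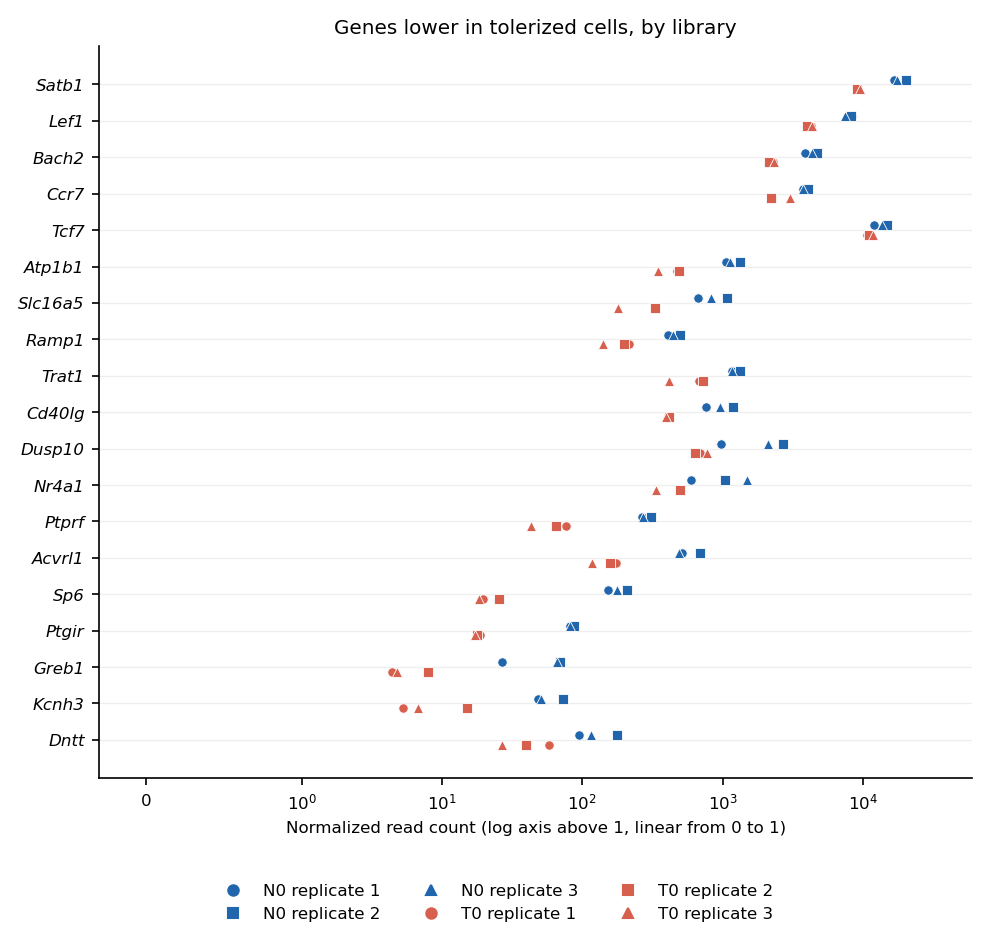
Normalized read counts of 19 genes that were lower in tolerized cells, 1 row per gene, on an axis that is logarithmic above 1 and linear below, with N0 libraries in blue, T0 libraries in red and the shape marking the replicate. The T0 libraries lie to the left of the N0 libraries in each row, with a gap of about 2-fold for *Satb1* and *Lef1* and a wider one for *Sp6*, *Ptgir* and *Kcnh3*.

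Several T cell identity genes fell. Of 18 tested, 8 fell and 1 rose, with a median log2 fold change of −0.22, and the list held 0.681 to 0.713% of counts in N0 and 0.631 to 0.636% in T0. *Cd4*, the coreceptor that defines these cells, had 7059.8, 7281 and 6488 normalized counts in N0 and 4870.1, 5051 and 5539.7 in T0 (log2 fold change −0.43, SE 0.08, adjusted p = 0.00039). *Trat1*, a transmembrane adaptor of the TCR, had 1164, 1328 and 1175 normalized counts in N0 and 684, 723 and 416 in T0 (log2 fold change −1.01, SE 0.23, adjusted p = 0.0069). The naive libraries were above the tolerized ones for both, while *Cd3e* and *Trac* did not separate. *Trat1* did not pass the test with sex as a covariate or with only the resting libraries (adjusted p = 0.0540 and 0.0564).

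Genes in none of the lists made up 101 of the 111 called lower. *Greb1*, an estrogen-regulated gene in other tissues, had 26.7, 68.9 and 66.4 normalized counts in N0 and 4.42, 7.95 and 4.80 in T0 (log2 fold change −3.21, SE 0.44, adjusted p = 1.8e-05), the largest fall among called genes whose libraries did not overlap. *Sp6*, a zinc finger factor, had 154, 207 and 176 normalized counts in N0 and 19.5, 25.6 and 18.2 in T0 (log2 fold change −3.07, SE 0.21, adjusted p = 3.8e-09), and 3329 of its bases are shared with *Gm11532* on the other strand, whose reads cannot be told apart from it without strand. *Kcnh3*, a potassium channel, had 48.5, 73.1 and 50.6 normalized counts in N0 and 5.31, 15.0 and 6.71 in T0 (log2 fold change −2.65, SE 0.35, adjusted p = 1.0e-05), and *Ptgir*, the receptor of prostacyclin, had 81.2, 87.7 and 81.3 normalized counts in N0 and 18.6, 17.7 and 17.3 in T0 (log2 fold change −2.22, SE 0.27, adjusted p = 3.9e-06). The fall of *Ptgir* and the rise of *Ptger2* put receptors of different prostanoids on opposite sides. *Ptprf*, a receptor tyrosine phosphatase, had 267, 307 and 269.7 normalized counts in N0 and 76.1, 64.5 and 43.2 in T0 (log2 fold change −2.19, SE 0.22, adjusted p = 2.1e-06). *Acvrl1*, a type I receptor of the TGF-beta family, had 513, 685 and 488 normalized counts in N0 and 174, 158 and 117 in T0 (log2 fold change −1.90, SE 0.16, adjusted p = 5.9e-08), and *Tgfbr3*, the coreceptor betaglycan, had 1966, 2408 and 2002 normalized counts in N0 and 851, 875 and 743 in T0 (log2 fold change −1.37, SE 0.13, adjusted p = 9.3e-07). No tolerized library reached a naive one for either TGF-beta family receptor. *Ampd1*, AMP deaminase 1, had 169, 284 and 244 normalized counts in N0 and 75.2, 76.0 and 38.4 in T0 (log2 fold change −1.87, SE 0.23, adjusted p = 8.3e-06). *Amigo2*, an adhesion molecule, had 443, 537 and 421 normalized counts in N0 and 149, 148 and 110.3 in T0 (log2 fold change −1.78, SE 0.15, adjusted p = 5.7e-08), *Arhgap29*, a GTPase activator, had 236, 301 and 209 normalized counts in N0 and 83.1, 77.7 and 71.9 in T0 (log2 fold change −1.68, SE 0.17, adjusted p = 4.3e-07), and *Dapk1*, death-associated kinase 1, had 229, 404 and 384 normalized counts in N0 and 122, 131 and 87.3 in T0 (log2 fold change −1.57, SE 0.18, adjusted p = 6.7e-06). All of these were apart between the groups, which was a condition for naming them. The exception is *Tgfbr3*, which was chosen after its values were seen.

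*Dntt*, the terminal transferase that adds bases during receptor recombination and is mostly confined to developing lymphocytes, had 95.1, 175 and 116 normalized counts in N0 and 57.5, 39.7 and 26.9 in T0 (log2 fold change −1.63, SE 0.27, adjusted p = 0.00012). Its level in N0 was low, at 4.43 RPKM against 142 for *Satb1*, and it fell together with the alpha and delta segments described above. Among abundant lower genes chosen after their values were seen, *Pdk1*, pyruvate dehydrogenase kinase 1, had 4491, 6542 and 5246 normalized counts in N0 and 2702, 2649 and 2474 in T0 (log2 fold change −1.06, SE 0.11, adjusted p = 2.6e-06). *Pde3b*, a phosphodiesterase that degrades cAMP, had 5658, 3762 and 3804 normalized counts in N0 and 1995, 1660.5 and 1733 in T0 (log2 fold change −1.30, SE 0.13, adjusted p = 4.3e-06), and *Adcy6*, an adenylate cyclase that makes it, had 1399, 1618 and 1551 normalized counts in N0 and 682, 659 and 553 in T0 (log2 fold change −1.27, SE 0.13, adjusted p = 1.3e-06). Enzymes on both sides of cAMP were thus lower in each tolerized library. Some lower calls rested on a single library. *Eps8l1* had 0, 0 and 535 normalized counts in N0 and 0, 0 and 0 in T0, and *Hecw2* had 2.97, 328 and 0 normalized counts in N0 and 2.65, 0 and 0.959 in T0, so each was called on reads of 1 naive library (adjusted p = 0.0396 and 0.0296, chosen after their values were seen).

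The same genes were read in the libraries outside T0 and N0. TAg and NAg cells were harvested after a last injection of the MBP peptide. TPI and NPI cells were treated for a short time with PMA and a calcium ionophore (PI). These libraries were part of the same fit, so they helped set the scaling, the filter and the spread behind the calls at rest. Each pair has 3 libraries per group, and all TPI and NPI libraries came from male mice. All NAg libraries came from female mice, as did TAg replicates 1 and 2, while TAg replicate 3 came from a male. The antigen pair thus also differed in sex between its groups. In TAg against NAg 20.9% of tested genes passed the test as higher and 18.5% as lower, and in TPI against NPI 18.2% and 19.7%. Of the 450 genes higher at rest, 302 (67.1%) were higher in TAg and 11 lower, and 290 (64.4%) were higher in TPI and 2 lower. The 61 genes of T cell lists, cell division genes among them, were higher in 45 and 53 cases. Their median log2 fold changes were 1.59 at rest, 1.43 after antigen and 1.45 after PI. The 359 unlisted genes were higher in 232 (64.6%) and 221 (61.6%) cases, with medians of 1.42, 0.99 and 0.93. The 17 neutrophil genes were higher in 17 and 11 cases, with medians of 4.21, 3.44 and 2.47, and the 7 erythroid genes in 5 and 2. The neutrophil list was 0.00506 to 0.00791% of counts in NPI and 0.0129 to 0.0209% in TPI, above the naive libraries there too and below its share in T0. Of the 111 lower genes, 94 (84.7%) were lower in TPI and 1 higher, while 55 (49.5%) were lower in TAg and 10 higher. Of the genes called higher at rest, 200 were also called in TAg, which is 44.4% of the 450 and 32.2% of the 622 called there (3.61% of tested genes), and 181 in TPI (40.2% of the 450 and 31.0% of 583, which are 3.38% of tested genes). Of those called lower, 31 were also called in TAg (27.9% of the 111 and 8.78% of 353, which are 2.05% of tested genes) and 63 in TPI (56.8% of the 111 and 16.4% of 383, which are 2.22% of tested genes).

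**Figure D5:**
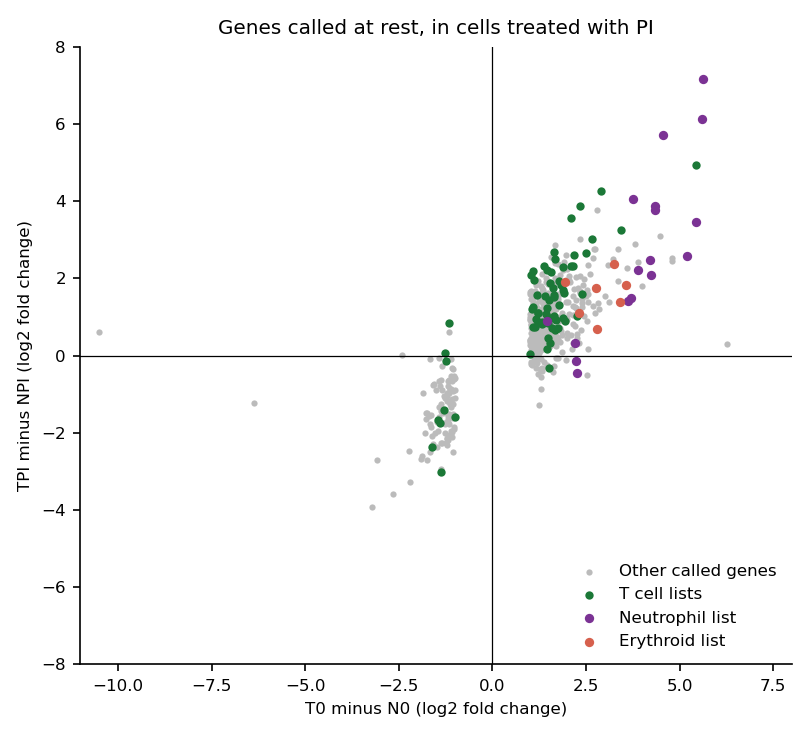
Log2 fold change of each of the 561 called genes in TPI against NPI (vertical axis) plotted over its log2 fold change in T0 against N0 (horizontal axis), with 1 point per gene and color by gene list. Most points lie at the upper right and lower left, where both values have the same sign, as for 290 of the 450 higher and 94 of the 111 lower genes that passed the test in both.

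Single genes kept or lost their gap in these other libraries. *Il10* and *Maf* had log2 fold changes of 5.39 and 4.07 in TAg against NAg and of 4.95 and 3.02 in TPI against NPI, close to or above those at rest. *Lag3* (4.28 and 4.26) and *Nt5e* (2.55 and 3.57) passed the test in both as well. *Pdcd1* had 0.19 in TAg (adjusted p = 0.402) and 2.22 in TPI, *Spry1* had 0.13 (adjusted p = 0.748) and 3.26, and *Il2rb* had −0.05 (adjusted p = 0.911) and 1.57. The gap in these 3 genes was thus read at rest and after PI, and was not detected after antigen. *Cd40lg* had −4.82 in TAg and 0.07 in TPI (adjusted p = 0.746). *Nr4a2*, higher at rest, was lower in TAg (−2.41) and higher in TPI (0.84), and *Nr4a3*, lower at rest, had −2.22 and 1.20. Among lower genes, *Satb1* had −1.79 and −1.09, *Ptprf* had −2.92 and −3.29, and *Lef1* had −0.19 (adjusted p = 0.0706) and −1.67. *Bach2* (0.66), *Ccr7* (0.39) and *Pdk1* (0.47) were lower at rest and higher in TAg, and were lower in TPI (−0.33, −0.40 and −1.62). Of the 30 naive genes tested, 15 were higher and 5 lower in TAg, against 2 higher and 22 lower in TPI. Whether these gaps differed from the one at rest was not tested here.

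Promoters were read from RefSeq (build GRCm38.p6) as windows of 250 bases before to 50 after the start site, which were at hand for 315 of the 450 higher genes (392 windows) and 59 of the 111 lower genes (87 windows). Motifs of T cell factors were counted on both strands. The AP-1 motif TGANTCA stood in 6.89% of windows of higher genes, in 8.05% of those of lower genes and in 7.81% of all 32851 windows. The NFAT core TGGAAA stood in 17.9%, 17.2% and 21.4%, the LEF/TCF motif CTTTGA in 12.8%, 13.8% and 16%, and the TATA box TATAAA in 8.67%, 12.6% and 13.6%. The MAF motif TGCTGA stood in 17.6%, 28.7% and 19.5%. The shares for higher genes were below those of all promoters for each of the 5 motifs, a difference that was not tested. The windows of *Ctla4* (chr1:60908775-60909074, + strand) and *Satb1* (chr17:51833241-51833540, − strand) are shown as examples of a gene that rose and a gene that fell, with matches to AP-1, NFAT, MAF or LEF/TCF letters in capitals.

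Ctla4: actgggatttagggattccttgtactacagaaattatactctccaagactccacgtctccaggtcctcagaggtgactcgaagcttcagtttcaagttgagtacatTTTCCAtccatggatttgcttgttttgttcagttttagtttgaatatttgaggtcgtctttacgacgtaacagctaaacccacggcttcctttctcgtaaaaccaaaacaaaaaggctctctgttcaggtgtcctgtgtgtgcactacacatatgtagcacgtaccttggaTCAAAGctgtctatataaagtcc
Satb1: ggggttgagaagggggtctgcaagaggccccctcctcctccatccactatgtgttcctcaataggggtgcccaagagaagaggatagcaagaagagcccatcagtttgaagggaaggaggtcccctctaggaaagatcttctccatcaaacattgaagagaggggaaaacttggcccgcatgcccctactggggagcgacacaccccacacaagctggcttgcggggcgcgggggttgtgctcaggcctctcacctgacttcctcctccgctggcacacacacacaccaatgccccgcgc

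The *Ctla4* window held an NFAT core at position −144 and a LEF/TCF motif at position 27 from the start site, both on the reverse strand, and the *Satb1* window held none of these letters.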

How the data were processed

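CD4+ T cells of 6 groups were sequenced in 18 libraries, 3 per group, from rRNA-depleted RNA with paired-end reads. Reads were mapped by the authors to mm9 (NCBIM37) with TopHat2 2.1.1 and counted per Ensembl gene with HTSeq 0.9.1, and the deposited values are these raw read counts, without normalization or pooling. The submitters' processing notes also list DESeq2 1.18 and edgeR 3.24. The strand setting and the mode for overlapping genes are not given in the sources used here, and 123 of the 561 called genes overlap another gene. Symbols and positions were matched by Ensembl ID to an annotation of the same build for 37205 of 37991 genes.

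Counts were analyzed with R 4.3.3 and edgeR 4.0.16. After TMM scaling, 1 model with 6 group means covered all 18 libraries, and T0 was tested against N0 with the robust quasi-likelihood F test, two-sided, adjusted by Benjamini-Hochberg over 17240 genes with an average of at least 3 normalized counts in a group. Each adjusted p and standard error of a gene comes from this fit unless another is named. With at most 3 reads in each library of a group, the ratio of summed reads is given with its exact 95% interval, or a lower bound against a floor of 3 counts. Levels between genes are compared as RPKM over annotated exon length, and 0.5 was added to normalized counts before logs.

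The members and the 20 gene lists (528 symbols, 521 matched) were chosen with earlier results of these data known. Named are, in each list, up to 4 members with the largest rise, fall and count, the 25 largest rises and falls without overlap outside the lists of other cells, sex-linked genes, and genes the study names beside its RNA-seq data. Other genes are marked, and some that the rule names are not reported here. Alternatives were DESeq2 1.42.0, the study's rule with both tools, other scalings and filters, only the 6 resting libraries, the replicate number as a block, sex and the levels of the neutrophil and erythroid lists as covariates, other correlation thresholds and each library left out. In simulated counts for T0 against N0, 197 of 200 changed genes were recovered with 1 false call among 16825 genes. The simulation gave all genes the same dispersion and no difference in sex or other cells. Its changed genes had counts above 50 in N0 and changes beyond 2-fold. It checks the code and does not give the error rates of the real comparison.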

Additional observations from a re-analysis of the deposited data

How the results depend on the processing

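The numbers called held within 1.5 times of 450 higher and 111 lower genes under most alternatives. They were 475 and 107 with DESeq2, 474 and 106 with the study's rule, 453 and 105 with DESeq2's size factors in edgeR, 436 and 109 without the filter on low counts, and 441 and 82 with only the resting libraries. Without each library in turn, 335 to 566 genes were called higher and 89 to 158 lower, the fewest without N0 replicate 2 and the most without N0 replicate 1. With the replicate number as a block, 452 were called higher and 108 lower. Equal numbers had correlations of 0.017, −0.033 and 0.067 over 5000 genes between N0 and T0. The highest with an unequal number were 0.045, 0.035 and −0.025. With 3 libraries per group, these values cannot decide whether equal numbers mark a pairing. Without the minimum count, 872 were called higher and 194 lower, and 484 and 430 genes were shared with the antigen and PI comparisons in place of 231 and 244, since genes of low counts then enter. At correlation thresholds of 0.7 and 0.9, 78 and 4 called genes followed a list in place of 23.

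With the levels of the neutrophil and erythroid lists as covariates, 3 genes were called higher and 15 lower, and several log2 fold changes reversed. *Ngp* was then at −0.27, *Olfm4* at −0.16, *Lcn2* at −1.62, *S100a8* at −2.00, *S100a9* at −2.51, *Elane* at −1.87 and *Csf3r* at −0.98. *Car1* was at −1.94, *Hbb-b1* at −1.18, *Slc4a1* at −2.37, *Prg2* at −1.53 and *Epx* at −3.49. *Mki67* was at −1.30, *Top2a* at −0.60 and *Ccna2* at −1.53, and *Kcnc1* at −2.00, *Abca13* at −1.29, *Dusp6* at −0.13, *Cd3e* at −0.071 and *Entpd1* at −0.038. In the other direction *Tcf7* was at 0.11, *Bach2* at 0.16, *Slc16a5* at 0.22, *Nr4a1* at 0.24, *Ampd1* at 0.28, *Traj59* at 0.29, *Cd200r1* at 1.25, *Dusp10* at 1.42, *Greb1* at 2.22 and *Eps8l1* at 21.4. Standard errors were about 4 times those of the reported fit, and the cause of each reversal was not tested. *Trac* and *Cd3e*, which did not pass the test, changed sign near 0. *Trac* was at 0.046 with only the resting libraries and 0.043 with sex as a covariate. Without each library in turn it was at −0.092 to 0.031, and *Cd3e* at −0.072 to 0.098.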
